A study of Mus musculus with 8 samples.

Results

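Red blood cells and their precursors carry RNA for hemoglobin chains, for the enzymes that make heme and for a specialised membrane, and 32 genes of this kind were read in red pulp macrophages, the spleen macrophages that engulf aged red blood cells. The genes were chosen by name as 4 globins, the globin chaperone Ahsp, 8 heme synthesis enzymes, 8 membrane and skeleton proteins, 4 surface antigens, 5 factors of erythroid cells and 2 cytosolic enzymes. Of the 32, 31 were matched by Ensembl ID to a row of the deposited count table of 55414 genes, and Ahsp was not analysed here. A filter on low counts kept 14004 genes of the table and 29 of the 31. Hba-a1 and Hba-a2 did not pass it.

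Wild-type C57BL/6J mice underwent sham surgery or cecal ligation and puncture (CLP), a model of sepsis in which gut bacteria leak into the abdomen, and 2 h later their spleens were taken and the macrophages sorted. Each group had 4 RNA-seq libraries. Neither the age of the mice nor the gate of the sort is given in the sources used here. Whether the libraries are of separate mice is not stated, so the p-values reflect the spread among these 8 samples, part of which may be technical.

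Total counts were 17333748 to 21409078 in the CLP libraries and 15392992 to 25665633 in the sham libraries, so that a level of 1 CPM (counts per 1000000, on totals scaled by TMM) rested on 15.1 to 27.6 reads. The macrophage label was read against marker levels. All 11 of 11 red pulp macrophage genes, led by Vcam1, were detected in all 8 libraries. Their summed level was 37110 to 41560 CPM in CLP and 32470 to 39660 CPM in sham. All 10 B cell and all 10 T cell marker genes were also detected in all 8, but summed to at most 213 and 151 CPM. Sham replicate 4 had the lowest red pulp macrophage sum (32470 CPM), close to those of Sham replicates 2 and 3 (33840 and 33080 CPM). It differed from the other 3 sham libraries in most of the genes described here. Values are therefore given with and without it. The 31 genes together took 0.195% to 0.286% of the counts in the CLP libraries, 0.121% to 0.162% in Sham replicates 1, 2 and 3, and 0.400% in Sham replicate 4 (95% Wilson interval 0.397% to 0.403%, which covers counting error only).

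Heme is built in both mitochondria and cytosol by a chain of enzymes that starts with aminolevulinate synthase and ends with ferrochelatase, which inserts iron. Most cells use the synthase Alas1, which heme itself represses, whereas red cell precursors use Alas2, whose translation depends on iron. Precursors mature on the surface of splenic and bone marrow macrophages, lose their nucleus, and keep globin RNA for a time as reticulocytes. A macrophage sort can hold RNA that the macrophages make, RNA of cells they have engulfed and RNA of cells attached to them, and these sources cannot be told apart in these libraries.

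Sequence limits what the globin rows can show. The coding regions of Hbb-bs and Hbb-bt, the adult beta-globin genes of this strain, differed at 1 of 441 bases (99.8% identity), and those of the alpha-globin genes Hba-a1 and Hba-a2 at 1 of 426 bases (99.8%). The 90 coding bases around the single difference of the beta-globin pair are shown from the GENCODE mouse release 21 transcripts to show the only coding position at which a read can tell the pair apart, and the capital marks it.

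Hbb-bs: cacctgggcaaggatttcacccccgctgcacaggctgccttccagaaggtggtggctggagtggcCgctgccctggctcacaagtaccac
Hbb-bt: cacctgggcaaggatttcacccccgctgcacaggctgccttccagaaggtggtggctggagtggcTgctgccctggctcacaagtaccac

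The share of 50-base stretches found in no other gene's transcripts was 34.2% for Hbb-bs, 41.7% for Hbb-bt, 32.5% for Hba-a1 and 13.1% for Hba-a2. Within the coding region it was 6.4% for each beta-globin gene. In the other 27 genes it was 94.9% to 100% over the whole transcript. How the authors' counting treated reads that match several genes is not given in the sources used here. The split between paralogs is therefore uncertain, and so are low alpha-globin counts. The strand setting of the counting is not given either, so reads of a gene and of one that overlaps it on the other strand cannot be told apart.

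The promoters of 3 genes that changed are shown with the letters of motifs that erythroid regulators are known to bind. GATAA, written TTATC on the other strand, is the core of the GATA factor motif, and CACCC, written GGGTG on the other strand, is the core of the motif of Klf1-type factors. Each sequence is the 250 bases before the RefSeq start on GRCm38.p6, read in the gene's direction, with matches of either motif in capitals. Hbb-bs lies on the minus strand at chr7:103827929-103828178, Alas2 on the plus strand at chrX:150547167-150547416 and the upstream RefSeq start of Alas1 on the minus strand at chr9:106247955-106248204.

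Hbb-bs: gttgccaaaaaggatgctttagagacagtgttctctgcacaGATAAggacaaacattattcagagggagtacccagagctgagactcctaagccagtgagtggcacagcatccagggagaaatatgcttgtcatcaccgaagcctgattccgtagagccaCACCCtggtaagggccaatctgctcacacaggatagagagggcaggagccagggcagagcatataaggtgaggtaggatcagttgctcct
Alas2: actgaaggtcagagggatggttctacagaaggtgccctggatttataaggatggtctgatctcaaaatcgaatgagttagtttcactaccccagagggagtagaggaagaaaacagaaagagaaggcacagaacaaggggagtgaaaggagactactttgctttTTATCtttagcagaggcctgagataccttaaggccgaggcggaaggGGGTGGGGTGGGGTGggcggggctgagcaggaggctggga
Alas1: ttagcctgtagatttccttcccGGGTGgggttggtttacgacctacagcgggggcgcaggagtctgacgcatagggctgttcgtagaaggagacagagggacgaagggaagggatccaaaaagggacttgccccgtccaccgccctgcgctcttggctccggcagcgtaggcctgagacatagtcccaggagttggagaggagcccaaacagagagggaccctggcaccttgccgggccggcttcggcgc

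The Hbb-bs window held 1 GATAA and 1 CACCC, the Alas2 window 1 GATAA and 3 CACCC, and the Alas1 window 1 CACCC and 0 GATAA. RefSeq promoters were matched for 26 of the genes. GATAA lay in 15 of their 31 promoter entries (48.4%) against 22.6% of all 32851 promoters of the same length, and CACCC in 20 (64.5%) against 52.0%. Of 18 matched genes classed by name as largely restricted to red cell precursors among blood cells, 13 held GATAA and 16 held CACCC. Of the 8 classed as more broadly expressed 2 and 3 did. The class, which includes Gata1 and Epor, was not tested here. These matches describe letters in a window and not bound sites.

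Between CLP and sham, 5 of the 29 tested genes rose and 2 fell, with edgeR's quasi-likelihood test and Benjamini-Hochberg adjustment over all 14004 genes at an adjusted p of 0.05. Hbb-bs, Hbb-bt, Alas2, Epb41 and Bpgm were higher after CLP, and Alas1 and Epor were lower. The 5 make 17.2% of the tested genes against 19.8% of all genes called higher, and the 2 make 6.90% against 23.5% of all genes called lower. The share that rose is thus close to that of all genes. In the same 5 genes every CLP library lay above every sham library, as in 18.7% of all genes, and in the same 2 every CLP library lay below, as in 22.8%. In bulk samples fewer cells of a type and less RNA per cell cannot be told apart. With library totals in place of TMM the median log2 difference of all genes moved by -0.32, calls over all genes went from 2767 higher and 3297 lower to 1286 and 6435, and those among the 29 went to 4 and 3.

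Without Sham replicate 4, 11 of the 29 were higher (37.9%, against 19.0% of all genes then tested) and 2 lower (6.90%, against 19.4%). The 6 further genes were Urod, Fech, Slc4a1, Gypc, Tspo2 and Car2. Every CLP library lay above Sham replicates 1, 2 and 3 in 10 of the 29 (34.5%, against 20.4% of all genes). The median log2 fold change of the 29 genes was -0.35 with all libraries, beside -0.05 over all genes tested, and 0.63 without Sham replicate 4, beside 0.00. A positive log2 fold change was found in 9 of the 29 with that library and in 26 without it. This 1 library therefore set the sign for most of these genes, although not for those that passed the test. Sham replicate 4 was singled out because it was high in these same genes. Leaving it out thus lowers their sham means by choice. Calls, shares and adjusted p-values without it, here and below, are descriptions and not tests.

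**Figure D1:**
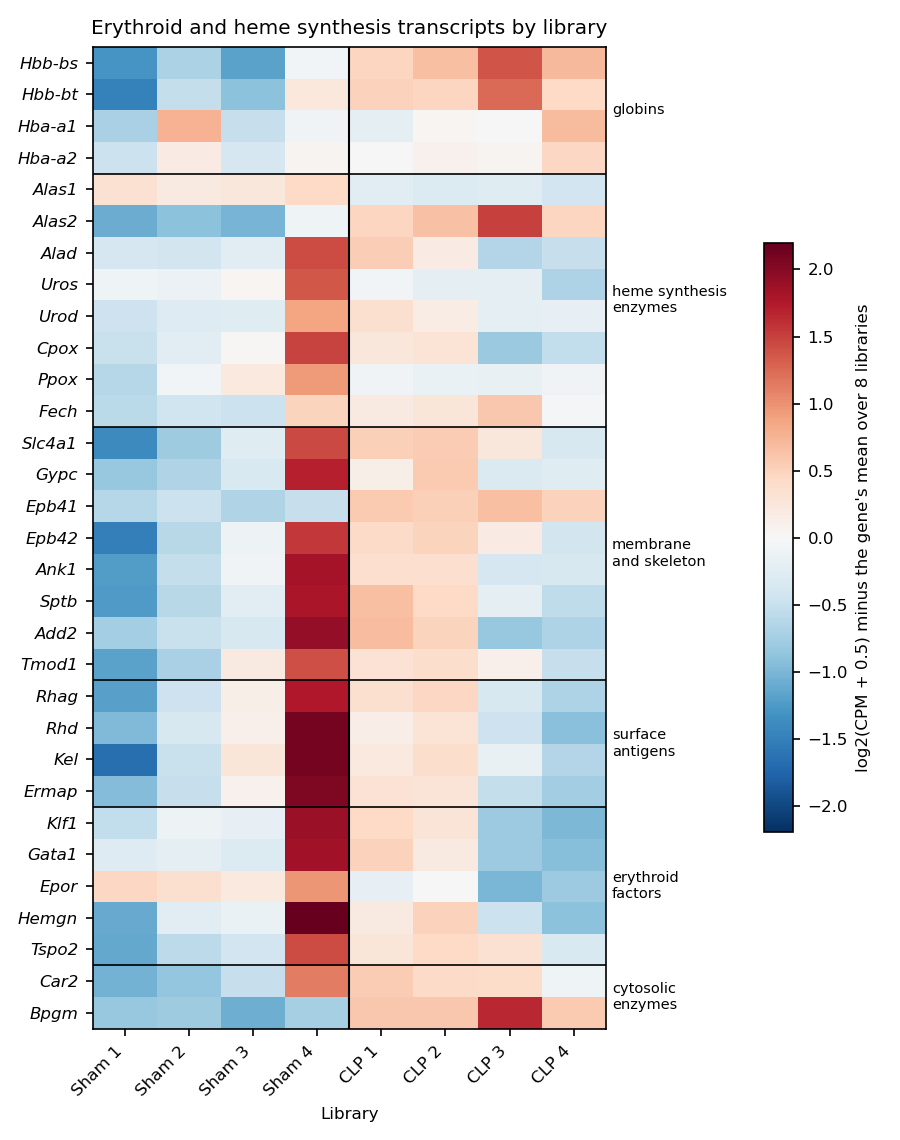
Level of 31 transcripts (rows, grouped by role) in each library (columns), as log2(CPM + 0.5) minus the gene's mean over the 8 libraries. Sham replicate 4 was the highest of the 8 libraries in 23 of the 29 tested genes, whereas Hbb-bs, Hbb-bt, Alas2 and Bpgm were highest in CLP replicate 3.

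Hbb-bs, the beta-globin row with more reads, was 2.96 times as abundant after CLP and Hbb-bt 2.43 times. Few reads were counted for the alpha-globin genes in any library. Hbb-bs was at 106, 121, 200.2 and 126 CPM in CLP replicates 1 to 4 and at 31.2, 47.6, 34.0 and 74.1 CPM in Sham replicates 1 to 4. The groups did not overlap, with CLP replicate 3 highest and Sham replicate 4 the highest of the sham libraries. Its mean rose from 46.7 ± 19.6 to 138.5 ± 41.9 CPM (SD, n = 4 each), and the log2 fold change was 1.57 (SE 0.32, edgeR adjusted p = 0.00477), and the change was 1.90 without Sham replicate 4 (adjusted p = 0.00034). The paralog Hbb-bt was at 20.9, 20.6, 35.2 and 19.9 CPM in CLP and at 4.92, 10.0, 7.63 and 17.2 CPM in sham. These groups did not overlap either, although Sham replicate 4 came close to the lower CLP libraries. Hbb-bt rose by 1.28 on the log2 scale (SE 0.37, edgeR adjusted p = 0.0236), a call that was lost without CLP replicate 3 (adjusted p = 0.0725), without Sham replicate 3 (0.0544) and with library totals (0.0667).

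The ratio of Hbb-bt to Hbb-bs reads was 0.158 to 0.197 in CLP and 0.158 to 0.232 in sham, ranges that overlap, and it inherits the uncertain split of shared reads. Hba-a1 had 1 to 24 reads per library and Hba-a2 4 to 14, so neither passed the filter or could be tested. In red blood cells alpha and beta chains are made in like amounts, and here the alpha-globin rows stood below the beta-globin rows in all libraries, also per exon length. The part of multiply matching reads in this gap was not tested. Globin rows together took 0.0114% to 0.0214% of the counts in CLP and 0.00391% to 0.0106% in sham. These shares carry the same uncertainty about shared reads.

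**Figure D2:**
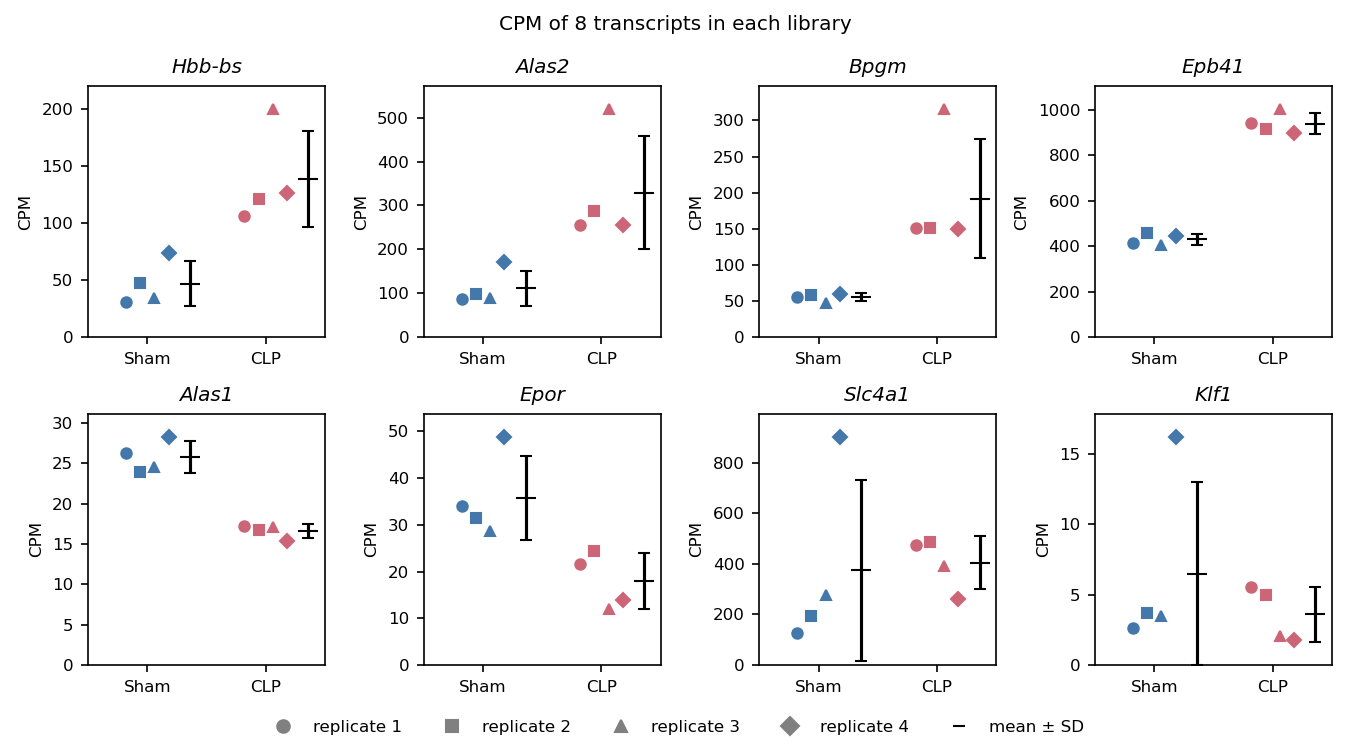
CPM of 8 transcripts in each library (points, shaped by replicate) with the group mean and SD (bars). Groups do not overlap for Hbb-bs, Alas2, Bpgm, Epb41, Alas1 and Epor, whereas for Slc4a1 and Klf1 Sham replicate 4 (902 and 16.2 CPM) lies above every CLP library.

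Heme synthesis opened with 2 genes that moved in opposite directions. Alas2, the erythroid synthase, was at 255, 288, 520.1 and 255 CPM in CLP and at 86.2, 97.3, 90.2 and 171 CPM in sham. All CLP libraries lay above all sham libraries, with CLP replicate 3 far above the rest. It rose from 111 ± 40.1 to 329 ± 128 CPM (SD, n = 4 each), and the log2 fold change was 1.57 (SE 0.32, edgeR adjusted p = 0.00467), and by 1.26 without CLP replicate 3.

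Alas1, the synthase of other cells, was at 17.2, 16.8, 17.1 and 15.4 CPM in CLP and at 26.3, 23.9, 24.5 and 28.3 CPM in sham. The libraries of each group lay close together and well apart from the other group. It fell from 25.8 ± 1.98 to 16.6 ± 0.830 CPM, a log2 fold change of -0.63 (SE 0.09, edgeR adjusted p = 0.000308). Sham replicate 4 did not stand apart in Alas1, at 1.08 times the next sham library. The ratio of Alas2 to Alas1 reads within a library was 14.8, 17.2, 30.4 and 16.5 in CLP and 3.28, 4.07, 3.68 and 6.04 in sham. This ratio needs no scaling between libraries, and its groups did not overlap.

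The middle of the chain did not pass the test. Alad, which condenses aminolevulinate, was at 6.14 to 14.5 CPM in CLP and 7.33 to 27.5 CPM in sham, Uros, which closes the porphyrin ring, at 6.62 to 10.4 and 9.92 to 28.9, and Urod, the decarboxylase after it, at 22.9 to 33.9 and 19.2 to 48.7. Cpox and Ppox, the oxidases that follow, were at 21.5 to 47.0 and 20.99 to 22.5 CPM in CLP and at 27.1 to 107 and 15.2 to 45.5 CPM in sham. Sham replicate 4 had the highest value of all 8 libraries in each of these 5 genes. Their log2 fold changes were -0.75 to -0.02 (edgeR adjusted p = 0.128 for Uros and 0.963 for Urod at the ends), and without Sham replicate 4 Urod was higher by 0.42 (adjusted p = 0.0444). Uros was called lower with library totals (adjusted p = 0.0382) and with 1 surrogate variable (-0.46, adjusted p = 0.0269), whereas without Sham replicate 4 its log2 fold change was -0.20 (adjusted p = 0.381).

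Fech, the ferrochelatase that completes heme, was at 143, 149, 188 and 120.3 CPM in CLP and at 82.2, 91.2, 89.0 and 174 CPM in sham. The CLP libraries lay above Sham replicates 1, 2 and 3 and around Sham replicate 4. With all libraries the log2 fold change was 0.46 (SE 0.26, edgeR adjusted p = 0.185). Against Sham replicates 1, 2 and 3, whose mean was 87.5 ± 4.69 CPM, Fech was higher by 0.80 (edgeR adjusted p = 0.000477). That fit leaves out the highest sham value of Fech. With 1 surrogate variable added, Fech was called higher with all libraries (0.63, edgeR adjusted p = 0.00784). That variable was estimated from these same counts, and its relation to Sham replicate 4 was not tested. In 3 of the 8 heme synthesis enzymes (37.5%), every CLP library lay above Sham replicates 1, 2 and 3. These were Alas2, Urod and Fech, and the share of all genes was 20.4%. With Sham replicate 4 included, only Alas2 stayed above (12.5%, against 18.7% of all genes).

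Among the 8 membrane and skeleton genes, Epb41 rose and 7 did not pass. Epb41 encodes protein 4.1, which ties spectrin and actin to the membrane and is also made outside the red cell lineage. Its levels were 939, 914, 1003 and 897 CPM in CLP and 412, 457, 403 and 444 CPM in sham, so that the groups were far apart and Sham replicate 4 lay among the other sham libraries. Epb41 rose from 429 ± 25.5 to 938 ± 46.6 CPM (SD, n = 4 each), and the log2 fold change was 1.13 (SE 0.07, edgeR adjusted p = 1.66e-06), and had the smallest SE of the 29 genes.

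Slc4a1 encodes band 3, the anion exchanger and main integral protein of the red cell membrane. It was at 476, 488, 392 and 260 CPM in CLP and at 125, 193, 275 and 902 CPM in sham. Sham replicate 4 was above every CLP library, CLP replicate 4 lay below Sham replicate 3, and the group means of 404 ± 105 and 374 ± 358 CPM did not differ in the test (log2 fold change 0.11, SE 0.62, edgeR adjusted p = 0.904). Without Sham replicate 4 the change was 1.05 (edgeR adjusted p = 0.0275), and with library totals and all libraries it was -0.23.

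The spectrin beta chain Sptb was at 104, 89.1, 56.4 and 44.5 CPM in CLP and at 27.5, 42.8, 55.6 and 230 CPM in sham. Its anchor to band 3, ankyrin (Ank1), was at 63.4, 63.5, 38.0 and 38.3 CPM in CLP and at 20.6, 33.8, 46.3 and 176 CPM in sham. In both, CLP replicates 1 and 2 were above Sham replicates 1, 2 and 3, and CLP replicate 4 was below Sham replicate 3. Sham replicate 4 was 4.13 times the next sham library in Sptb and 3.80 times in Ank1. Protein 4.2 (Epb42) was at 15.4 to 28.8 CPM in CLP and the adducin Add2 at 7.56 to 22.3 CPM, beside 6.95 to 18.8 and 8.07 to 10.7 CPM in Sham replicates 1, 2 and 3. The glycophorin Gypc was at 8.33 to 15.8 CPM in CLP and tropomodulin (Tmod1), which caps actin filaments, at 5.69 to 10.99 CPM, beside 5.68 to 8.27 and 3.40 to 9.56 CPM in those 3 libraries. All 4 had the same highest library, with Sham replicate 4 at 60.7 CPM for Epb42, 53.7 for Add2, 35.4 for Gypc and 23.0 for Tmod1. The 7 genes that did not pass had log2 fold changes of -0.51 to 0.11. Without Sham replicate 4 they were 0.63 to 1.05, and Slc4a1 and Gypc were then called higher (edgeR adjusted p = 0.0308 for Gypc, 0.0605 for Epb42).

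**Figure D3:**
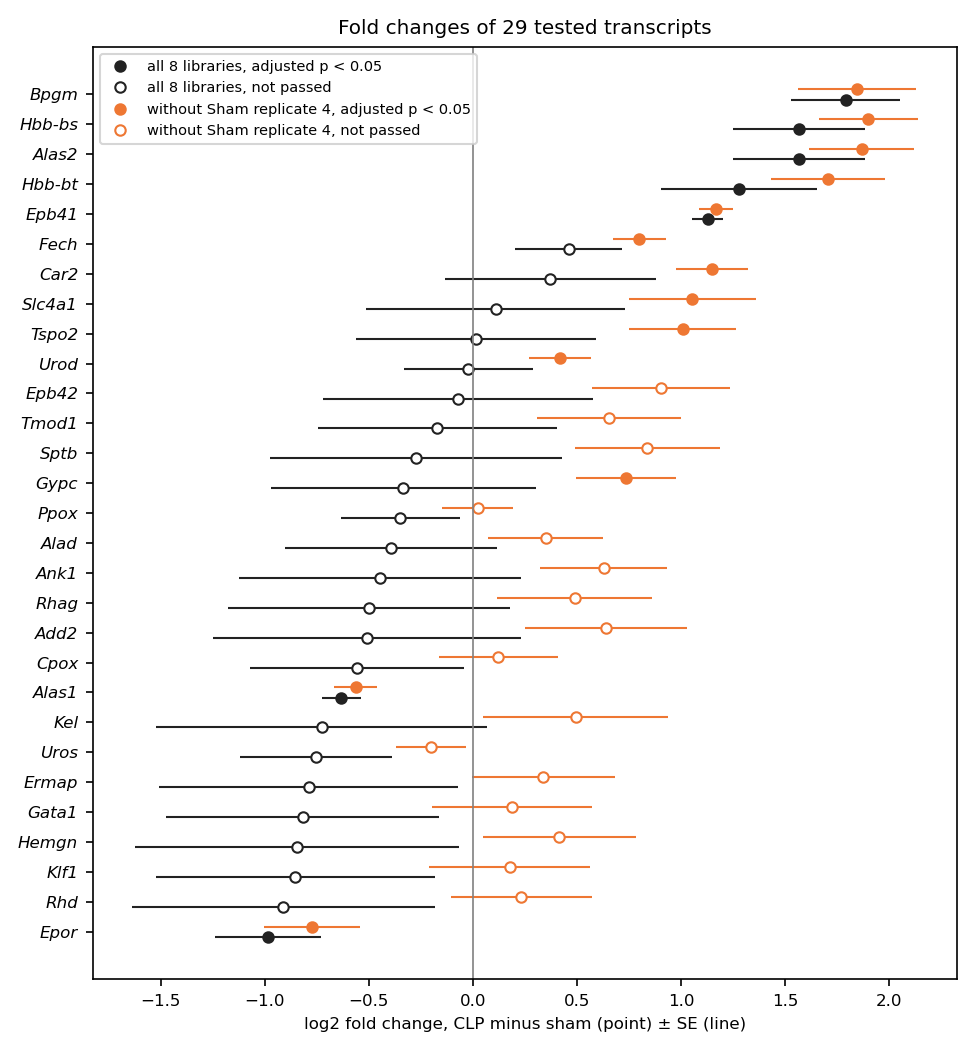
Log2 fold change (CLP minus sham, points) with its SE (lines) for the 29 tested genes, fitted on all 8 libraries (black) and without Sham replicate 4 (orange), filled where the adjusted p was under 0.05. Positive values number 9 in black and 26 in orange, and the 7 genes called with all libraries are called in both.

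None of the 4 surface antigens passed. Rhag and Rhd, proteins of the Rh complex, were at 7.41 to 16.7 and 7.94 to 19.1 CPM in CLP and at 4.99 to 42.3 and 7.64 to 67.8 CPM in sham. Kel, the metalloprotease of the Kell blood group, was at 7.08 to 14.98 CPM in CLP and 3.26 to 50.4 CPM in sham, and Ermap, the Scianna antigen, at 15.6 to 33.8 and 13.6 to 113 CPM. All 4 genes had their highest value in Sham replicate 4, their lowest sham value in Sham replicate 1 and their lowest CLP value in CLP replicate 4. Their log2 fold changes were -0.91 to -0.50 with all libraries and 0.23 to 0.49 without Sham replicate 4, and none was called in either fit (smallest edgeR adjusted p = 0.36 with all libraries, for Rhd). Summed over the 4 genes, the level was 38.1 to 83.8 CPM in CLP, 29.5 to 72.7 CPM in Sham replicates 1, 2 and 3 and 274 CPM in Sham replicate 4.

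Of the 5 erythroid factors, 1 fell and 4 did not pass. Epor, the receptor for erythropoietin, the hormone that keeps red cell precursors alive, was at 21.7, 24.5, 12.0 and 14.0 CPM in CLP and at 34.0, 31.4, 28.7 and 48.9 CPM in sham. Every CLP library lay below every sham library. Epor fell from 35.7 ± 9.04 to 18.0 ± 6.01 CPM (SD, n = 4 each), and the log2 fold change was -0.99 (SE 0.25, edgeR adjusted p = 0.0124), and by 0.77 on the log2 scale without Sham replicate 4 (adjusted p = 0.0238). With no filter on low counts the call was lost (adjusted p = 0.0564).

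Klf1 and Gata1, the transcription factors that switch on globin, heme and membrane genes in precursors, were among the least abundant genes here. Klf1 was at 5.57, 4.96, 2.08 and 1.79 CPM in CLP and at 2.61, 3.67, 3.496 and 16.2 CPM in sham, and rested on 27 to 395 reads per library. Gata1 was at 5.19, 4.09, 1.81 and 1.59 CPM in CLP and at 2.79, 2.97, 2.74 and 13.8 CPM in sham. In both genes CLP replicates 1 and 2 were above Sham replicates 1, 2 and 3, CLP replicates 3 and 4 were below them, and Sham replicate 4 was more than 4 times as high as any of those 3. The log2 fold changes were -0.85 (SE 0.67) and -0.82 (SE 0.66), with edgeR adjusted p = 0.346 and 0.356.

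Hemgn, a nuclear protein of precursors, was at 13.4 to 36.3 CPM in CLP and at 11.5, 21.3, 22.9 and 118 CPM in sham, and its Sham replicate 4 was 5.17 times the next sham library, the widest such gap of the 31 genes. Tspo2, a cholesterol-binding protein of maturing red cells, was at 7.30, 8.33, 7.73 and 4.70 CPM in CLP and at 2.50, 3.87, 4.37 and 17.02 CPM in sham. All CLP libraries lay above Sham replicates 1, 2 and 3, and Tspo2 was called higher only in the fits without Sham replicate 4 (1.01, edgeR adjusted p = 0.00855) or with 1 surrogate variable.

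Both cytosolic enzymes had higher CLP values than Sham replicates 1, 2 and 3, as had 20.4% of all genes. Bpgm makes 2,3-bisphosphoglycerate, which lowers the affinity of hemoglobin for oxygen. It was at 151, 151, 316 and 149 CPM in CLP and at 55.8, 58.2, 47.6 and 59.99 CPM in sham. The groups did not overlap, and Sham replicate 4 was level with the other sham libraries, at 1.03 times the next. Bpgm rose from 55.4 ± 5.48 to 191.8 ± 82.9 CPM (SD, n = 4 each), and the log2 fold change was 1.79 (SE 0.26, edgeR adjusted p = 0.000789), the largest rise of the 29 genes. Without CLP replicate 3 the rise was 1.44 (edgeR adjusted p = 7.46e-07).

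Car2, a carbonic anhydrase of red cells and many other cells, was at 187, 170.2, 167 and 118 CPM in CLP and at 61.2, 70.0, 89.6 and 275 CPM in sham. It did not pass with all libraries (0.37, SE 0.51, edgeR adjusted p = 0.593). Against Sham replicates 1, 2 and 3, with a mean of 73.6 ± 14.5 CPM, it was higher by 1.15 (edgeR adjusted p = 0.000571).

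Adjusted for exon length, Slc4a1 and Hbb-bs stood highest in sham, at 76.5 ± 73.1 and 60.8 ± 25.6 CPM per kb of exon (SD, n = 4), followed by Car2 at 51.2 ± 41.9 and Alas2 at 46.3 ± 16.7. These 4 did not differ beyond their spread. Over Sham replicates 1, 2 and 3 the order was Hbb-bs at 48.9 ± 11.5, Slc4a1 at 40.4 ± 15.4, Alas2 at 38.0 ± 2.34 and Car2 at 30.4 ± 6.00 CPM per kb (SD, n = 3). The first 3 of these lay within the SD of Slc4a1 of each other. In CLP Hbb-bs was first at 180.4 ± 54.6 CPM per kb and Alas2 next at 137 ± 53.3, within each other's spread, ahead of Slc4a1 at 82.5 ± 21.5, Car2 at 66.3 ± 12.2, Epb41 at 58.9 ± 2.92 and Bpgm at 53.5 ± 23.1. Add2, at 2.03 ± 2.18 in sham and 1.43 ± 0.745 in CLP, was the lowest of the tested genes in sham. On this scale Hba-a1 was at 0.453 ± 0.532 in sham and 0.608 ± 0.365 in CLP. The lengths are of all exons in GENCODE, so a gene that uses few of its exons reads too low. The rank of Hbb-bs also carries the uncertainty about reads shared between paralogs.

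**Figure D4:**
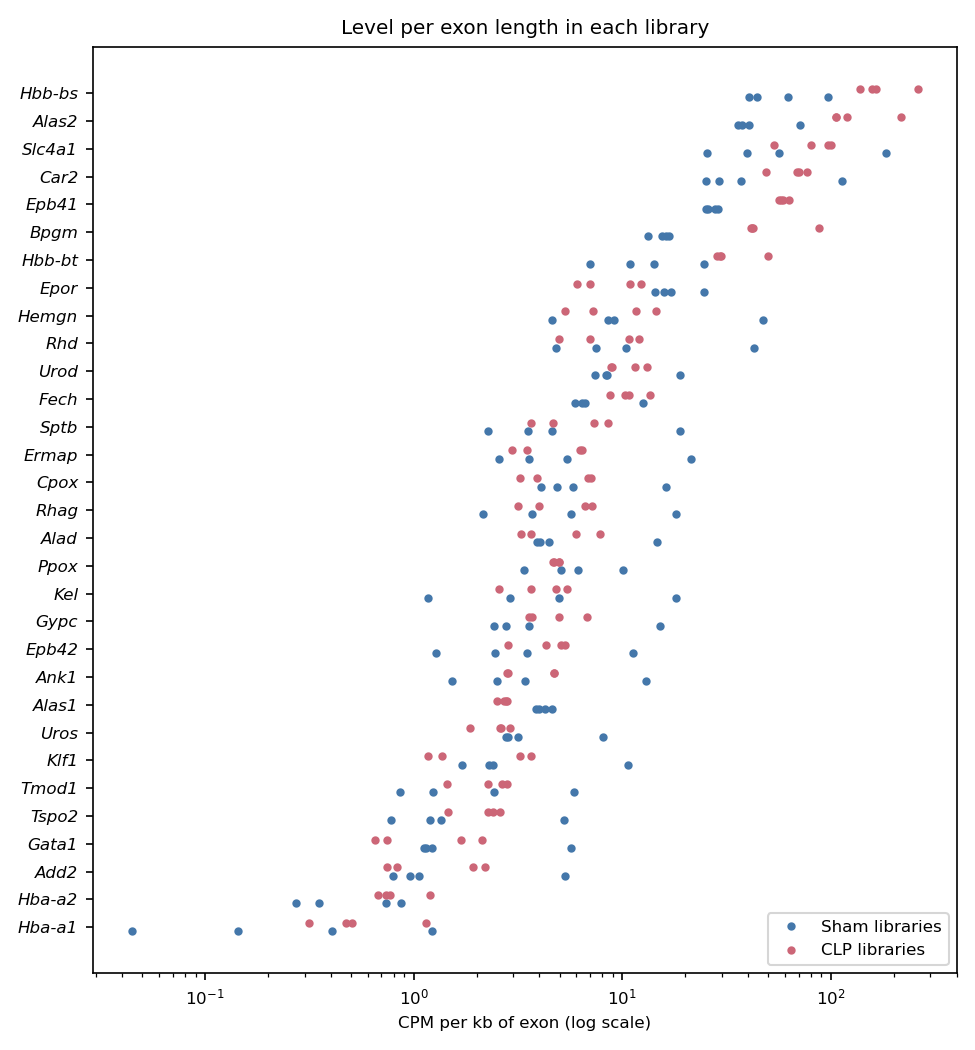
CPM per kb of exon (log axis) of 31 transcripts in the 4 sham (blue) and 4 CLP (red) libraries, ordered by overall level. Hbb-bs ranges over the highest values and the alpha-globin genes Hba-a1 and Hba-a2 over the lowest, while the right-most sham point of most rows is Sham replicate 4.

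The genes split by which library held their highest value. Sham replicate 4 was the highest of the 8 in 23 of 29 tested genes (79.3%, against 20.6% of all genes), and CLP replicate 3 in the other 6 (20.7%, against 18.8%), which were Hbb-bs, Hbb-bt, Alas2, Fech, Epb41 and Bpgm. By Dixon's criterion Sham replicate 4 lay far above the other sham values in 17 of the 29 (58.6%, against 2.88% of all genes). Among the 22 genes that did not pass, it was 1.64 to 5.17 times the next sham library.

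The same counts were also read as ratios within libraries. Hbb-bs reads per Klf1 read numbered 19.1, 24.5, 96.1 and 70.6 in CLP and 12, 13, 9.72 and 4.57 in sham, and Bpgm reads per Klf1 read 27.0, 30.5, 151.8 and 83.5 in CLP and 21.4, 15.9, 13.6 and 3.69 in sham. Slc4a1 reads per Klf1 read numbered 85.3 to 188 in CLP and 47.9 to 78.7 in sham. Both of these genes were highest in Sham replicate 4, where their ratio was 55.6, so this ratio cannot show the split. The groups did not overlap in these 3 ratios, and of all 8 ratios computed, which were chosen with the values in view, 5 did not overlap. They were low in Sham replicate 4 for Hbb-bs and Bpgm, and high in CLP replicate 3 for all 3. These are read ratios, not corrected for length, and Klf1 counts of 27 and 38 reads in CLP replicates 4 and 3 limit their precision.

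Cell cycle genes moved with the same library. Their 18 genes, led by Mki67, were all detected in all libraries and summed to 502, 466, 315 and 349 CPM in CLP and to 244, 257, 347 and 1039 CPM in sham. Sham replicate 4 was the highest sham library in 18 of 18, against 4023 of all 14004 genes tested. None of the 18 was called between groups. For this and the lists below, 19.8% of all genes tested were called higher and 23.5% lower. Early progenitor genes (6 genes led by Car1, of which 4 were detected in all 8 libraries) summed to 14.4 to 27.0 CPM in CLP, 12.7 to 21.4 CPM in Sham replicates 1, 2 and 3 and 28.2 CPM in Sham replicate 4, and 1 of the 4 tested, Kit, was called higher. In CLP replicate 3, where globin, Alas2 and Bpgm RNA was highest, neutrophil genes (led by Csf3r) summed to 176 CPM against 103 to 137 CPM in the other CLP libraries and 77.2 to 94.3 CPM in sham, with 7 of 13 detected in all libraries. Csf3r alone made most of these sums, with means of 110.9 of 130.8 CPM in CLP and 79.0 of 87.6 CPM in sham. Of the 4 neutrophil genes tested, 3 were called higher after CLP, Csf3r and the granule proteins S100a8 (1.60 to 6.93 CPM, edgeR adjusted p = 0.00351) and S100a9 (2.06 to 9.90 CPM, adjusted p = 0.0053). Platelet and megakaryocyte genes (led by Vwf), of which 12 of 14 were detected in all libraries, summed to 170.0 to 209 CPM in CLP and 169.5 to 201 CPM in sham. The largest part of that sum is Vwf, which was called lower (105 to 84.6 CPM, edgeR adjusted p = 0.0151). Of the 11 tested, 7 were called higher, beside 19.8% of all genes. Among them were the platelet chemokines Ppbp (3.35 to 10.6 CPM) and Pf4 (1.05 to 3.54 CPM). The part of dividing precursors, neutrophils, platelets or mitochondrial RNA (led by mt-Co1, 6895 to 7445 CPM in CLP and 5488 to 6009 CPM in sham for the 6 of 9 genes with reads, all 6 called higher) in the results above was not tested. Lists of monocyte genes (led by Nr4a1), B cell genes (Ighm), T cell genes (Cd4), NK cell genes (Prf1) and dendritic cell genes (Bst2) summed to 1390 to 1587, 118 to 191, 115 to 151, 5.77 to 16.3 and 85.5 to 95.4 CPM in CLP. In sham their sums were 1115 to 1373, 125 to 213, 107 to 120.1, 6.30 to 10.7 and 66.6 to 80.3 CPM. Nr4a1 alone had means of 856 of 1457 CPM in CLP and 715 of 1266 CPM in sham. Ighm had 123 of 164 CPM in CLP and 109 of 162 CPM in sham. Cd4 had 86.1 of 132 CPM in CLP and 72.9 of 113 CPM in sham. None of the 6 monocyte and 10 T cell genes tested was called. Of 10 B cell and 7 NK cell genes tested, 1 each was called lower. Among 6 dendritic cell genes 2 were called higher and 1 lower. No gene of these cell type lists was at 0 in all 8 libraries, and 3 of the 9 mitochondrial genes were. Of the 11 red pulp macrophage genes, 4 were called higher after CLP and 2 lower.

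**Figure D5:**
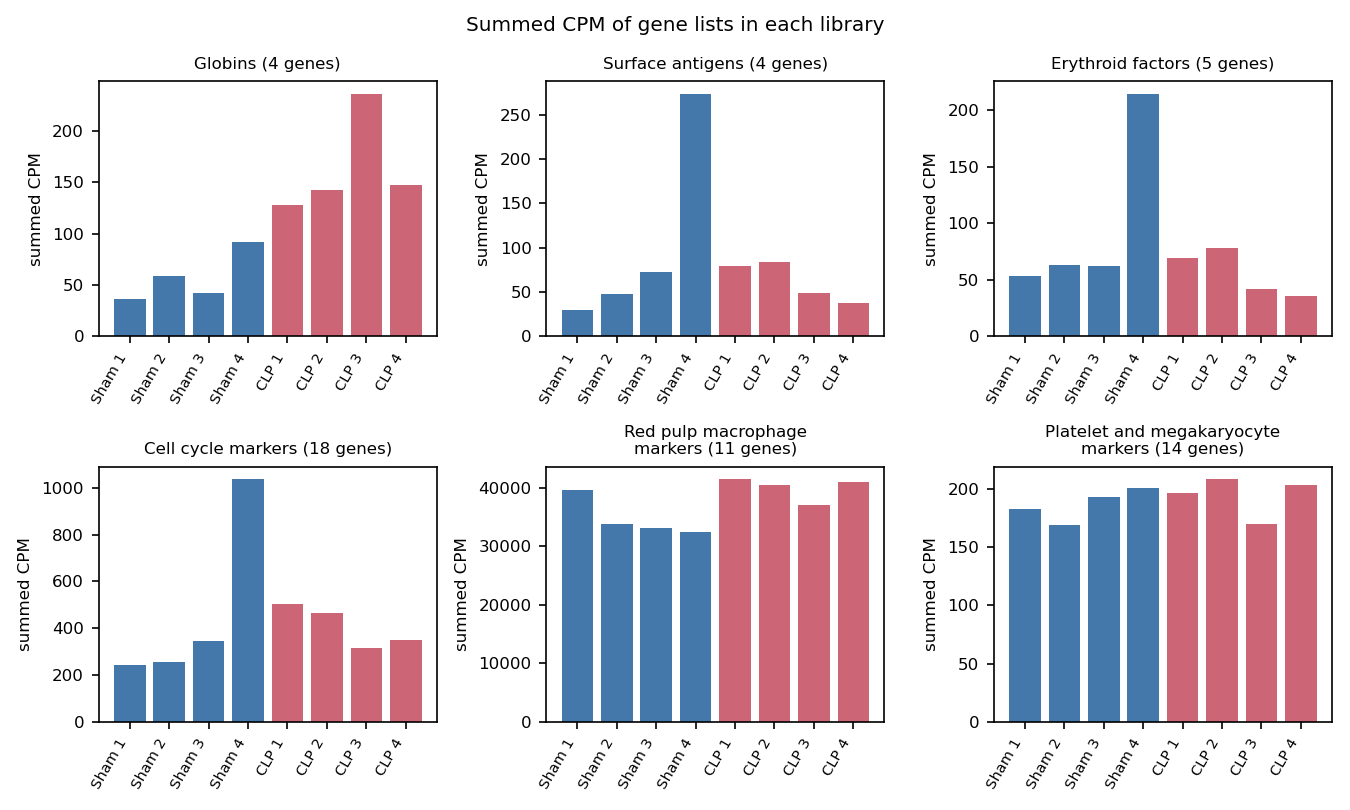
Summed CPM of 3 groups of the genes described here (top) and of 3 marker lists (bottom) in each library, sham in blue and CLP in red. Sham replicate 4 is highest for surface antigens (274 CPM), erythroid factors (214 CPM) and cell cycle genes (1039 CPM), and CLP replicate 3 is highest for the globins (236 CPM).

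A further list held 52 genes of red cell precursors that are not among the 32. Of its 48 tested genes 12 were higher (25.0%, against 19.8% of all genes) and 5 lower (10.4%, against 23.5%), with a median log2 fold change of -0.08, beside -0.05 over all genes. Without Sham replicate 4 the counts were 19 (39.6%, against 19.0%) and 3 (6.25%, against 19.4%), and with library totals 4 and 8. The caution about leaving out Sham replicate 4 holds here too, as it was also highest in most of these genes. The embryonic globin genes Hbb-bh1, Hbb-bh2, Hbb-y and Hba-x had 0 reads in all 8 libraries. Sham replicate 4 was the highest of the 8 libraries in 29 of the 48 (60.4%, against 20.6%) and CLP replicate 3 in 8 (16.7%, against 18.8%).

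The 3 largest rises among the called genes of the list were in genes that are expressed beyond the red cell lineage. Slc2a1, a glucose transporter, went from 27.1 to 103 CPM (log2 fold change 1.93, edgeR adjusted p = 2.75e-06), Tent5c, a cytoplasmic poly(A) polymerase and, averaged over all 8 libraries, the most abundant gene of the list, from 138.6 to 409 CPM (1.56, adjusted p = 0.00059), and Slc11a2, an iron importer, from 42.2 to 123 CPM (1.54, adjusted p = 0.000186). The 3 largest falls among called genes were in Bcl11a, a repressor of embryonic globin genes, from 8.39 to 4.23 CPM (-0.99, edgeR adjusted p = 0.00937), Cbfa2t3, a corepressor, from 6.85 to 4.03 CPM (-0.76, adjusted p = 0.0284), and Slc25a38, the mitochondrial glycine carrier that feeds heme synthesis, from 16.7 to 9.94 CPM (-0.74, adjusted p = 0.0304). Without Sham replicate 4 the calls of Cbfa2t3 (adjusted p = 0.0677) and Slc25a38 (0.0512) were lost.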

How the data were processed

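The deposited values are raw read counts per Ensembl gene, which the authors supplied as 1 table with 1 column per library, and 0 columns were unmatched. FastQC, STAR 2.7.10b, featureCounts, DESeq2 and the build mm39 are named without roles in the submitters' processing notes. Symbols (52081 of 55414 rows) and exon lengths came from GENCODE mouse release 21, used for no coordinates. The 32 genes and all lists were chosen with earlier results of these data known. All 32 genes were named, with the most abundant gene of each marker list and, of the other erythroid genes, the most abundant and the 3 largest rises and falls among called genes at 5 CPM or more. Marker genes named beside these were chosen after their values were seen. One gene of a marker list is not reported here.

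edgeR 4.0.16 (R 4.3.3) was fitted to the counts (filterByExpr, TMM factors 0.873 to 1.154, robust quasi-likelihood test, no covariates, common biological variation 0.182). Alternatives used DESeq2 1.42.0, limma-voom 3.58.1, sva 3.50.0, other scalings and filters, a replicate block, and left-out libraries. Leaving out CLP replicate 3 and Sham replicate 4 together was chosen after seeing the data. So was the emphasis on the fit without Sham replicate 4, although every library was left out in turn. No 2 libraries of a group agreed within sampling noise (chi-square per degree of freedom at least 8.48). The edgeR step was tested on simulated data. Figures used Python 3.11.15 and matplotlib 3.10.9.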

Additional observations from a re-analysis of the deposited data

Results flagged for a closer look

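In 22 cases 1 library of a group of 4 lay so far from the other 3 that the gap passed Dixon's 95% criterion, and chance alone gives this in about 1 of 20 groups. In 18 cases, 17 of them genes of the main list, the library was Sham replicate 4, and in 4 cases, 3 of them such genes, it was CLP replicate 3. The screen covered the 31 genes and each summed marker list, in both groups. Genes that are high in the same library are not separate events. Over all genes tested, Sham replicate 4 lay this far above the other sham libraries in 2.88%.

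Sham replicate 4 stood above the other sham libraries in heme synthesis genes, at 171 CPM for Alas2, 27.5 for Alad, 28.9 for Uros, 48.7 for Urod, 107 for Cpox and 174 for Fech. In membrane and skeleton genes it was at 35.4 CPM for Gypc, 175.6 for Ank1, 229.6 for Sptb and 53.7 for Add2. Among surface antigens it was at 67.8 CPM for Rhd and 113 for Ermap. Among erythroid factors it was at 16.2 CPM for Klf1, 13.8 for Gata1, 118 for Hemgn and 17.02 for Tspo2, and Car2 was at 275 CPM. The summed cell cycle markers were at 1039 CPM in the same library.

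CLP replicate 3 stood above the other CLP libraries in Hbb-bt at 35.2 CPM, in Alas2 at 520.1 CPM, in Bpgm at 316 CPM and in the summed NK cell markers at 16.3 CPM.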

How the results depend on the processing

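Of the 7 calls among the 29 genes, those of Hbb-bs, Alas2, Epb41, Bpgm and Alas1 kept their direction and their side of the threshold under every alternative run. Hbb-bt lost its call with library totals (adjusted p = 0.0667), with no filter on low counts (0.0959), without CLP replicate 3 (0.0725) and without Sham replicate 3 (0.0544), and Epor with no filter (0.0564). The number of genes higher after CLP was 11 with 1 surrogate variable, 11 without Sham replicate 4 and 10 without CLP replicate 3 and Sham replicate 4 together. With each library left out in turn it was 4 to 11, and the number lower was 2 to 2, while with no filter on low counts 1 was lower. For the other erythroid genes, library totals gave 4 higher and 8 lower, 1 surrogate variable gave 19 higher, and leaving out each library gave 10 to 19 higher and 3 to 5 lower (3 without CLP replicate 1, CLP replicate 4 or Sham replicate 4). Over all genes, library totals gave 1286 higher and 6435 lower, and leaving out each library gave 2310 to 2847 higher and 2639 to 3458 lower.

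Signs that turned belonged to genes that had not passed. With 1 surrogate variable the log2 fold change was 0.20 for Urod, 0.32 for Gypc, 0.59 for Epb42, 0.26 for Ank1, 0.44 for Sptb, 0.14 for Add2, 0.38 for Tmod1, 0.14 for Rhag and 0.15 for Kel, and it was called for Epb42 and Sptb. With limma-voom it was 0.07 for Urod, 0.09 for Gypc, 0.40 for Epb42, 0.02 for Ank1, 0.17 for Sptb and 0.24 for Tmod1, and with DESeq2 or its size factors 0.02 for Urod. With library totals it was -0.23 for Slc4a1 and -0.32 for Tspo2, and with no filter -0.01 for Tspo2. Without CLP replicate 3 and Sham replicate 4 together it was 0.49 for Alad, 0.47 for Urod, 0.28 for Cpox, 0.02 for Ppox, 0.83 for Gypc, 0.90 for Epb42, 0.73 for Ank1, 0.92 for Sptb, 0.83 for Add2, 0.64 for Tmod1, 0.58 for Rhag, 0.31 for Rhd, 0.53 for Kel, 0.44 for Ermap, 0.35 for Klf1, 0.36 for Gata1 and 0.51 for Hemgn. The cause was not tested beyond the libraries left out.

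With each library left out in turn the log2 fold change ranged from -0.79 to 0.64 for Add2, -0.65 to 0.35 for Alad, -0.70 to 0.63 for Ank1, -0.73 to 0.12 for Cpox, -0.34 to 0.90 for Epb42, -1.04 to 0.34 for Ermap, -1.15 to 0.19 for Gata1, -0.56 to 0.74 for Gypc, -1.12 to 0.42 for Hemgn, -1.04 to 0.49 for Kel, -1.13 to 0.18 for Klf1, -0.52 to 0.02 for Ppox, -0.76 to 0.49 for Rhag, -1.17 to 0.23 for Rhd, -0.13 to 1.05 for Slc4a1, -0.53 to 0.84 for Sptb, -0.42 to 0.66 for Tmod1, -0.23 to 1.01 for Tspo2, -0.14 to 0.42 for Urod and -0.87 to -0.20 for Uros.

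The labels do not say whether equal replicate numbers pair the libraries. Same-numbered libraries had correlations of 0.074, -0.038, 0.261 and -0.192 between their deviations from the group means, and 1 of 4 CLP libraries correlated best with its own number. With so few libraries these values cannot settle whether the numbers pair them. With the replicate number as a block, 5 genes were higher and 2 lower, the other erythroid genes gave 11 and 4, all genes 2799 and 3290, and the log2 fold change was 0.08 for Urod, 0.11 for Gypc, 0.39 for Epb42, 0.05 for Ank1, 0.23 for Sptb and 0.20 for Tmod1. Few reads limit the precision for the alpha-globin genes, with 1 to 24 per library, and for Klf1 and Gata1, with 24 to 395.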
